A study of Mus musculus with 2 samples.

Results

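MiR-143 and miR-145a are a pair of microRNAs made from neighbouring precursors, and each precursor can give a mature strand from either arm (5p and 3p). The 4 probes named for these strands, mmu-miR-143-3p, mmu-miR-143-5p, mmu-miR-145a-5p and mmu-miR-145a-3p, were chosen by name from the 1892 mouse microRNA probes of the arrays. They were read in unwounded skin and in unwounded oral mucosa, with 1 single-colour (Cy5) array per tissue and 2 µg of total RNA pooled from 3 animals on each. The methods describe the animals as female Balb/c mice of 8 to 10 weeks, with no transgene or treatment named for the profiled samples. The labels name the material as skin and as oral mucosa and the title of the series as epithelium, so the share of connective tissue, muscle and vessels in the RNA is not known. Each tissue is thus a single pool, and every difference below is one between 2 arrays with no test across animals.

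MicroRNAs are short RNAs that lower the output of messenger RNAs carrying matching sites, which they recognize mainly through their seed, bases 2 to 8. MiR-143 and miR-145 are the best known microRNAs of smooth muscle, where serum response factor and its partner myocardin drive their shared transcript, and mice that lack them have thin-walled arteries with poorly contractile smooth muscle. The strands usually retained are miR-143-3p and miR-145a-5p. MiR-145 is known to act on Klf4 and Klf5, factors that hold smooth muscle cells out of the contractile state, and both microRNAs are also made by fibroblasts and pericytes and are scarce in pure epithelial cells. In the RefSeq annotation Mir143 and Mir145a both lie within the span of the long non-coding RNA gene Carmn, which is also listed as Mir143hg.

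Both main strands of the cluster gave a higher signal on the oral mucosa array than on the skin array. MiR-145a-5p was detected in both tissues and miR-143-3p in oral mucosa only. The minor strand miR-143-5p passed the detection limit narrowly in oral mucosa, and miR-145a-3p was detected in neither tissue. Detection required that the average of the 2 repeat spots exceed the average of that array's 16 empty spots by more than 3 SD. In scanner units this limit was 59.9 for skin, where the empty spots read 36.4 ± 7.84 (SD), and 71.8 for oral mucosa, where they read 51.9 ± 6.65. By this rule 446 probes were detected in skin, 510 in oral mucosa and 562 on at least 1 array.

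The repeat spots of miR-145a-5p read 83.6 and 76.8 on the skin array, a mean of 80.2 ± 4.80 (SD of the 2 spots). On the oral mucosa array they read 260 and 233, a mean of 246 ± 19.0. Both oral mucosa spots were therefore above both skin spots, and the mean was 1.34 times the limit in skin and 3.43 times the limit in oral mucosa. After Variance Stabilizing Normalization (VSN), a transformation with a fitted offset and scale per array that follows log2 for bright spots, the difference of oral mucosa minus skin was 1.78 on the log2 scale. Its SD, from the repeat spots of both arrays, was 0.21, and the difference corresponds to 3.44-fold.

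The repeat spots of miR-143-3p read 57.3 and 56.7 on the skin array, with a mean of 57.0 ± 0.44 that was 0.95 times the detection limit. On the oral mucosa array they read 172 and 167, with a mean of 170 ± 4.03 that was 2.36 times the limit. The spots of the arrays did not overlap. Because the skin spots stayed just under the limit, the lowest detected skin signal, 59.9, stood in for them. Against it oral mucosa was at least 4.05-fold higher on the VSN scale, or 2.02 ± 0.05 (SD of the oral mucosa spots) in log2 units. This size rests on the fitted offsets, and on the plain log2 scale with no normalization between the arrays the same comparison gave 1.501. With the measured skin signal in place of the lowest detected one the VSN value was 2.22.

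The opposite strands were weak. MiR-143-5p read 44.5 and 43.3 in skin and 83.8 and 77.9 in oral mucosa. Its skin mean of 43.9 ± 0.91 was below the limit and its oral mucosa mean of 80.8 ± 4.14 was 1.13 times the limit. All oral mucosa spots of this strand were above its skin spots, but against the lowest detected skin signal the VSN log2 difference was 0.19, with an SD of 0.17. The value without a detection limit was 1.95, so the size of this difference was set almost wholly by how the undetected skin signal was treated. MiR-145a-3p read 37.8 and 38.8 in skin and 49.3 and 49.4 in oral mucosa. On each array these values lay within 1 SD of the mean of the empty spots, and no difference is given for this strand.

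**Figure D1:**
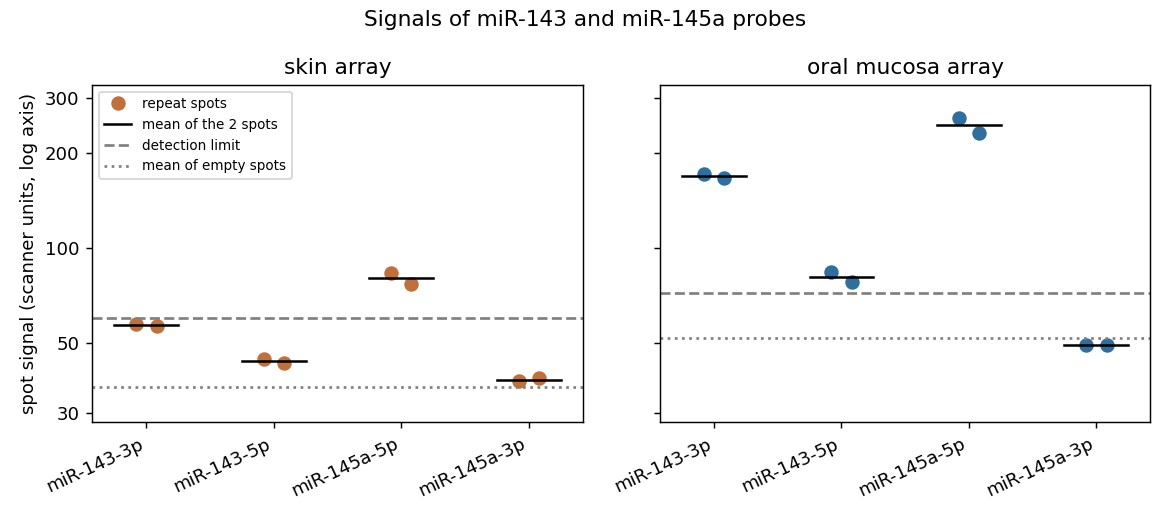
Signals of the 4 probes of miR-143 and miR-145a on the skin array (left) and the oral mucosa array (right), in scanner units on a log axis; points are the 2 repeat spots, short lines their mean, dashed lines the detection limit and dotted lines the mean of the empty spots. MiR-145a-5p lies above the limit on both arrays, miR-143-3p lies just under it in skin at 57.0 and well above it in oral mucosa at 170, and miR-145a-3p lies near the empty spots on both.

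The size rule for a difference between the tissues was a VSN log2 value of 1 or more in either direction, which is a 2-fold change. MiR-143-3p and miR-145a-5p passed this rule with higher signal in oral mucosa, which is 2 of the 4 probes and 2 of the 3 detected on at least 1 array, and 0 passed with higher signal in skin. Among all 562 detected probes 13.7% passed the rule toward oral mucosa and 28.5% in either direction, and the median difference over all of them was 0.00. The 3 detected members also had repeat spots that were higher in oral mucosa without overlap, but so had 37.9% of the detected probes. Among the 394 probes detected on both arrays, of which 11.9% passed the rule toward oral mucosa, miR-145a-5p stood at place 14 by the size of its VSN difference toward oral mucosa. A further 116 probes, 6.13% of the 1892, were detected in oral mucosa alone, among them miR-143-3p and miR-143-5p. The median difference of these 116 was 0.41, so they lean toward oral mucosa as a class. By size of difference miR-143-3p stood at place 10 of the 116 and miR-143-5p at place 82.

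On the VSN scale the value of miR-143-3p, taken from the lowest detected skin signal, exceeded the difference of miR-145a-5p by 0.24, with a combined repeat-spot SD of 0.22. With the measured skin signal of miR-143-3p the gap was 0.44, also with an SD of 0.22. These gaps compare differences and not levels, since the brightness of a spot also depends on how well its probe binds and the signals of separate probes cannot be set against each other.

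The direction and the call of both main strands were the same under every normalization run, although the sizes were not. Quantile normalization gave 1.08 for miR-143-3p and 1.15 for miR-145a-5p. The processed intensities that the authors deposited were 22 in skin and 98 in oral mucosa for miR-143-3p and 48 and 167 for miR-145a-5p. On the scale log2(value + 50) these gave differences of 1.04 and 1.15. Relative to the median over all detected probes on that scale they were 0.99 and 1.10, with miR-143-3p then just under the size rule. The processed value of miR-143-5p was 6 in skin and 26 in oral mucosa, and that of miR-145a-3p was 0 and 2. The 5 alternatives without VSN gave smaller differences for both main strands than VSN did, and in all 5 miR-145a-5p had the larger of the pair. MiR-143-5p had no stable direction, with -0.026 under quantile normalization and 0.44 from the processed values.

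**Figure D2:**
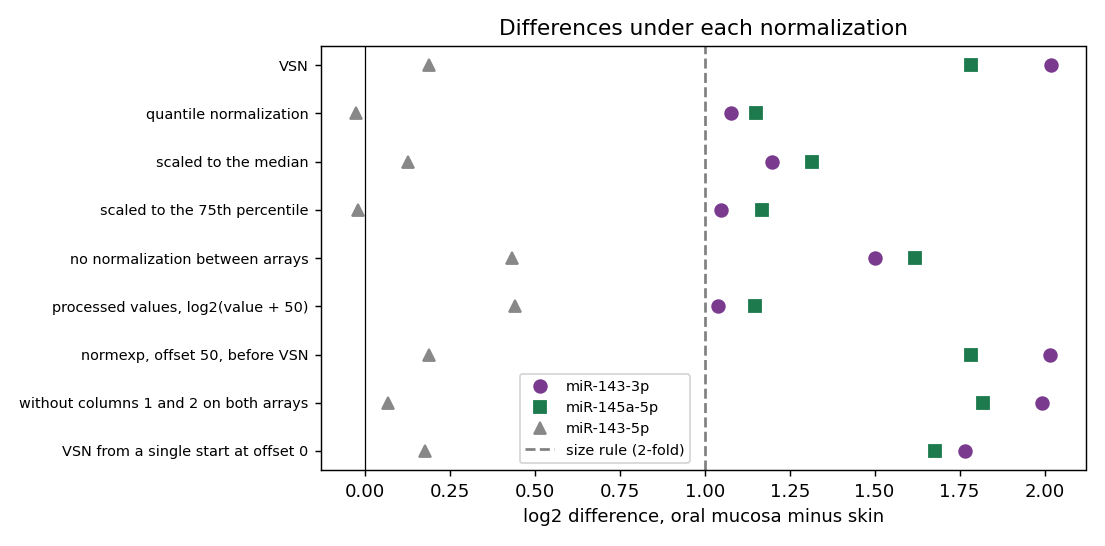
Log2 difference of oral mucosa minus skin (horizontal axis) for miR-143-3p (circles), miR-145a-5p (squares) and miR-143-5p (triangles) under VSN and each alternative listed on the vertical axis, all with the detection limit kept; the dashed line marks the 2-fold size rule. Both main strands stay to the right of the rule, with the smallest values at 1.04 and 1.15, while miR-143-5p stays below it and falls on either side of 0.

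All 4 probes have a spot in column 2 of the arrays, near an edge where 7 of 34 detected skin probes of that column read under 0.5 times their repeat spot. The members were not among these, since the larger spot of each member was at most 1.09 times the smaller on the skin array and 1.12 times on the oral mucosa array. With columns 1 and 2 left out on both arrays, so that each member kept 1 spot, the differences were 1.99 for miR-143-3p and 1.82 for miR-145a-5p. The other probes within 3 rows and 3 columns of the spots of miR-143-3p and miR-145a-5p had median VSN differences between -0.24 and 0.02. The detected ones among them, 6 to 19 around a spot, had medians between -0.10 and 0.46.

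The sequences of the members differ in how far other probes of the array could share them. MiR-143-3p, 21 bases long, shared its seed with 0 other probes, and miR-145a-3p, 22 bases long, with 0. MiR-145a-5p, 23 bases long, shared its seed and its first 17 bases with 1 other probe, miR-145b, a microRNA of a separate precursor outside the Carmn span. The probe of miR-145b read 62.2 ± 9.90 in skin and 101 ± 4.65 in oral mucosa, above the limit on both arrays. Its difference of 0.70 had an SD of 0.61 and did not pass the size rule. The difference of miR-145a-5p was thus larger by 1.08, with an SD of 0.65. Whether a miR-145a-5p molecule also binds the probe of miR-145b, or the reverse, was not tested. MiR-143-5p shared its seed with miR-1930-3p, with a skin signal of 63.9 ± 1.61, an oral mucosa signal of 107 ± 5.52 and a VSN log2 difference of 0.77 (SD 0.16).

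The arms of miR-143 both gave a difference above 0, of 2.02 for the 3p and 0.19 for the 5p strand. In all, 88 of the 732 precursors with probes for both arms had both detected on at least 1 array, and in 47 of these 88 the arms lay on the same side of 0. The gap between the arms of miR-143 was 1.83, against a median gap of 0.73, and 75 of the 88 precursors had a smaller gap. As both values of miR-143 are bounds from the lowest detected skin signal, this gap carries the treatment of the undetected arm, and with the measured skin signals the arms gave 2.22 and 1.95. At least 2-fold higher signal in oral mucosa for both arms was found in 4 precursors, miR-31, miR-195a, miR-199a and miR-214, and in skin for miR-29c. These 5 are named after their values were seen.

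**Figure D3:**
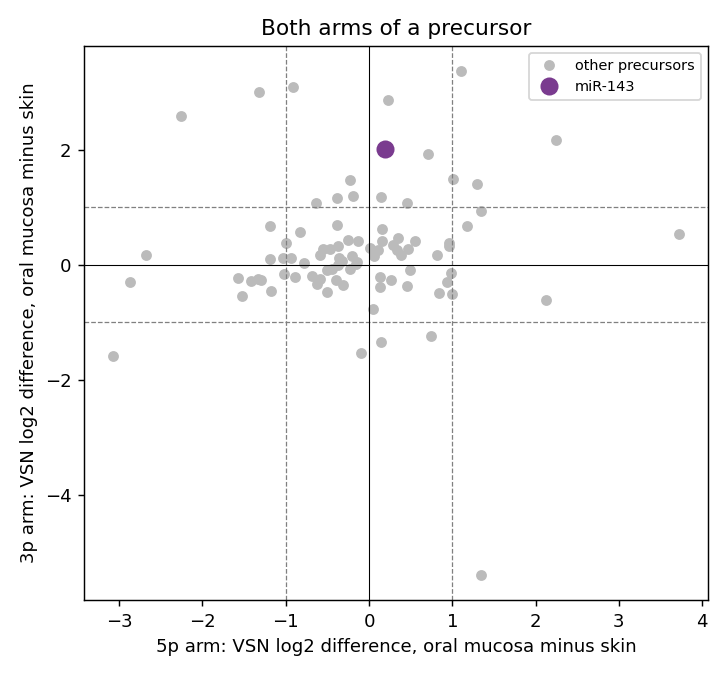
VSN log2 difference of oral mucosa minus skin for the 5p arm (horizontal axis) and the 3p arm (vertical axis) of the 88 precursors with both arms detected on at least 1 array; dashed lines mark the 2-fold size rule in each direction. MiR-143 (large point) lies at 0.19 and 2.02, above the rule for its 3p arm only.

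Precursors that lie close together are often cut from a single transcript, as miR-143 and miR-145a are. Among precursors matched to the annotation by name and with a detected arm, 77 pairs lay within 10000 bases of each other. Many of them combine precursors of miR-466, miR-467 and miR-669 with one another, so the pairs are not independent. In 2 of the 77 pairs each precursor had an arm at least 2-fold higher in oral mucosa. They were miR-143 with miR-145a and miR-221 with miR-222, the latter pair being known for the growth of vascular smooth muscle cells. The values were 1.26 (SD 0.13) for miR-221-3p and 1.34 (SD 0.14) for miR-222-3p, both smaller than those of miR-143-3p and miR-145a-5p. In a further 2 pairs each had an arm at least 2-fold higher in skin. Precursors with several copies in the genome, such as miR-199a, could not be placed by name and are not among the 77. Also absent from the 77 are miR-181c with miR-181d and miR-15a with miR-16-1. Each of these precursors had an arm at least 2-fold higher in oral mucosa, such as miR-181d-5p at 1.91 and miR-15a-3p at 3.10. The other arm of miR-15a was at -0.92. The 77 therefore need not hold every cluster that is higher in oral mucosa.

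As the cluster is made by cells of vessel walls and connective tissue, microRNAs of such cells and of others were read beside it from fixed lists. The stromal list held strands of miR-199a, miR-199b and miR-214, which fibroblasts and other mesenchymal cells make. All 5 were detected in oral mucosa and 3 in skin, and 4 of the 5 were at least 2-fold higher in oral mucosa, with a median difference of 1.49 against 0.00 over all detected probes. Under the other settings 3 or 4 of the 5 passed and all 5 stayed above 0. The summed signal of the list was 487 in skin and 1729 in oral mucosa, where as many empty spots would sum to 182 and 259. MiR-214-3p read 184 ± 19.0 in skin and 948 ± 11.8 in oral mucosa, with a difference of 2.17 with an SD of 0.19. For miR-199a-3p the signals were 116 ± 17.9 and 347 ± 22.1, with a difference of 1.49 with an SD of 0.35. These sizes lie on either side of that of miR-145a-5p. The mature sequences of miR-214-3p and miR-199a-3p from RefSeq (GRCm38.p6, plus strand) are shown with the seed in capitals. MiR-214-3p is at chr1:162223438-162223459, and miR-199a-3p, which has a second copy elsewhere, at chr1:162217883-162217904. In mouse miR-199b-3p has the same mature sequence, as the authors state, so the probe cannot tell it from miR-199a-3p.
miR-214-3p: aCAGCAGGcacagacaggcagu
miR-199a-3p: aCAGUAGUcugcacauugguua
The array probe of each is directed against exactly this sequence.

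Of the endothelial strands miR-126a-3p passed the limit on the oral mucosa array alone, where it read 155 ± 51.0. Its difference was 1.84 (SD 0.70), but it was 0.95 under quantile normalization and 0.92 when scaled to the 75th percentile, and miR-126a-5p was detected on neither array. The summed signal of this list was 81.6 in skin and 200.2 in oral mucosa, against 72.7 and 104 for as many empty spots. In the red blood cell list, with a summed signal of 141 in skin and 3154 in oral mucosa against 109 and 156 for as many empty spots, miR-451a alone of the 3 probed strands was detected, with a difference of 6.21 (SD 0.37), and 2 of the 5 names had no probe of that name. In the striated muscle list 4 of 9 strands were detected on at least 1 array and 0 were at least 2-fold higher in oral mucosa. The summed signal was 538 in skin and 656 in oral mucosa against 327 and 467 for as many empty spots. Toward skin 1 strand passed, miR-208a-3p at -1.35, but with an SD of 2.93, as its skin spots differed widely (85.8 ± 61.4). In this list miR-133a-3p, whose transcript is also driven by serum response factor, gave 0.71 (SD 0.24) and miR-133b-3p gave 0.53 (SD 0.13). Both were detected in oral mucosa only, so these values rest on the lowest detected skin signal. With no detection limit they were 1.75 and 1.39, and 2 of the 4 strands passed the size rule toward oral mucosa. MiR-206-3p, the strand of skeletal muscle, gave -0.19 (SD 0.36). MiR-1a-3p, the most abundant microRNA of heart and skeletal muscle, was detected on neither array, at 52.5 ± 13.3 in skin and 64.3 ± 7.74 in oral mucosa. All 7 epithelial strands, of the miR-200 family, miR-203 and miR-205, were detected on both arrays, with a median difference of -0.48 and a summed signal of 49225 in skin and 48779 in oral mucosa. The size rule was passed by 1 of them toward oral mucosa and by 1 toward skin, and under quantile normalization their median was 0.

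**Figure D4:**
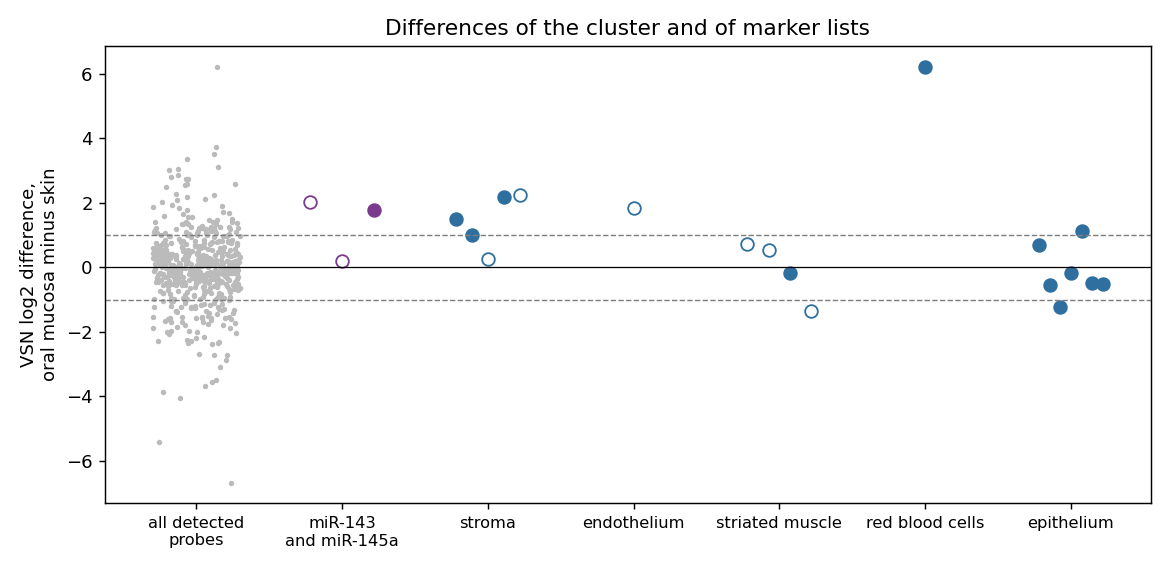
VSN log2 difference of oral mucosa minus skin (vertical axis) for all 562 detected probes (small points, left) and for the detected strands of miR-143 and miR-145a and of 5 marker lists; filled points were detected on both arrays, open points on 1 array only, and dashed lines mark the 2-fold size rule. MiR-143-3p at 2.02 and miR-145a-5p at 1.78 lie in the range of the stromal strands, 0.27 to 2.25, and the epithelial strands lie between -1.22 and 1.12.

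Of the strands detected on at least 1 array, 4 of 5 stromal ones passed the size rule in the direction of miR-143-3p and miR-145a-5p. For endothelium and for red blood cells it was 1 of 1 each. For epithelium it was 1 of 7 and for striated muscle 0 of 4. Among all 562 detected probes 13.7% passed in this direction. With no detection limit striated muscle became 2 of 4 and the counts of the other lists stayed the same, while 313 of all 1892 probes passed. The part of any of these cell types in the difference was not tested. In bulk RNA more cells of a type and more of the microRNA in each cell cannot be told apart. A difference between the pools cannot be told apart from one between the tissues either. The 3 probes detected on both arrays whose VSN difference lay nearest to the 1.78 of miR-145a-5p were miR-7665-5p at 1.88, miR-207 at 1.67 and miR-181d-5p at 1.91. With 2 arrays such likeness rests on a single difference per probe.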

How the data were processed

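RNA was extracted with the miRNeasy kit, extended with a poly(A) tail, ligated to a tag and hybridized on MRA-1002 miRmouse v21 arrays. The authors deposited the intensity of each of the 3968 spots of an array as the median Cy5 brightness, without background subtraction or normalization, and 1 processed intensity per microRNA whose scaling is not given in the sources used here. Control spots (184) were left out except the 16 empty ones, which set the detection limit, and in the normexp fit.

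Repeat spots (2 per probe) were averaged. VSN, the normalization the methods name, was coded in Python as a maximum likelihood fit of arsinh values that trimmed the worst-fitting probes (90% kept in each of 5 signal ranges, and all in the dimmest), was run from several starting offsets and was tested on simulated data. It placed the offset at 37.9 (skin) and 46.3 (oral mucosa) and the oral mucosa scale at 1.37 times that of skin. Where 1 array did not detect a probe, the higher of its own and the lowest detected signal stood in. SDs cover repeat spots within an array only. Precision is limited by having 1 array per tissue. CyberT, which the methods name for differential analysis, was not run.

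Besides the members, the strands named were those of the fixed lists, those sharing a seed with a member and the 3 nearest in difference; others are marked as named after their values were seen. MiR-221, miR-222, miR-181c, miR-15a and miR-16-1 were likewise named after their values were seen. The members and lists were chosen with earlier results of these data known. Sequences of the members are not printed here. Alternatives were other normalizations, the processed values on the log2(value + 50) scale, normexp with an offset of 50, spots left out, other detection rules and other thresholds. Python 3.11.15, numpy 2.4.6, scipy 1.17.1, pandas 2.3.3, R 4.3.3 and limma 3.58.1 were used.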

Additional observations from a re-analysis of the deposited data

How the results depend on the processing

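No paired analysis was possible because there was a single array per tissue, with no numbers to pair. The VSN differences of 2.02 for miR-143-3p, 1.78 for miR-145a-5p and 0.19 for miR-143-5p moved by more than their repeat-spot SD as follows, in that order where all are given. They were 1.08, 1.15 and -0.026 with quantile normalization. Scaling to the 75th percentile gave 1.05, 1.17 and -0.020, and the processed values gave 1.04, 1.15 and 0.44. Scaling to the median gave 1.20 and 1.32 for the main strands. With no normalization, where the median over all detected probes was 0.40, miR-143-3p gave 1.501 and miR-143-5p 0.43, and relative to that median the main strands gave 1.11 and 1.22. With no detection limit miR-143-3p gave 2.22, miR-143-5p 1.95 and miR-145a-3p, which has no value otherwise, 0.66. VSN from a single start at offset 0 gave 1.77 for miR-143-3p. Normexp before VSN and leaving out columns 1 and 2 moved none of the 3 beyond its SD. The cause of these changes was not tested, except that without a detection limit the measured skin signals replace the bound.

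The number of members past the size rule, 2, was 1 when detection on both arrays was required, where miR-143-3p drops out, 1 at 4-fold, where miR-145a-5p does, and 3 with no detection limit, where miR-143-5p is added. Over all detected probes 160 passed. Quantile normalization lowered this count to 80, median and 75th-percentile scaling each to 85, the processed values to 87 and leaving the arrays unscaled to 102. It was 577 with no detection limit, 104 with detection on both arrays, 256 at 1.5-fold and 46 at 4-fold. The share of calls that were higher in oral mucosa was 48.1% with VSN and 78.4% with no normalization. Signal over background limits the members most in skin, where miR-145a-5p alone was detected.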
